A study of Homo sapiens with 4 samples.

Results

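The genes described here make, sense, and degrade prostaglandin E2 (PGE2) in TPC1 cells, an established human papillary thyroid carcinoma line that expresses the CCDC6-RET fusion protein. They are the cyclooxygenases PTGS2 and PTGS1, the phospholipase PLA2G4A, the PGE synthases PTGES, PTGES2, and PTGES3, the receptors PTGER2 and PTGER4, and the catabolic enzymes HPGD and PTGR1. These 10 of the 20372 genes in the deposited table were selected by name and chosen with the counts of these same libraries in view, so their differences between time points are a description and carry no test. RNA was sequenced from cells given the RET inhibitor BLU6864 for 6 h or for 24 h, with 2 libraries at each time point, numbered 1 and 2. The dose is 100 µM in the labels but 100 nM in the methods, and the labels mark only the 24 h libraries as a re-analysis, which cannot be told apart from time. Every cell carried the fusion and had been exposed to the drug, and vehicle-treated libraries were not analysed here, so the comparison is between a shorter and a longer exposure and not against untreated cells.

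Prostaglandin synthesis starts when cytosolic phospholipase A2, the product of PLA2G4A, frees arachidonic acid from membrane phospholipids. Cyclooxygenases turn arachidonic acid into prostaglandin H2, which the PGE synthases isomerize to PGE2. PTGS1 is the form that many tissues keep at a steady level, and PTGS2 is the inducible form, whose short-lived mRNA rises after growth factors and cytokines. PGE2 leaves the cell and acts on the receptors EP2 (PTGER2) and EP4 (PTGER4), which raise cyclic AMP, and it is inactivated by the dehydrogenase HPGD and by reductases such as PTGR1.

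The promoters of the genes that catalyze the first steps are shown because PTGS2 and PTGS1, which carry out the same reaction, differed between the time points in opposite directions, while PLA2G4A lies next to PTGS2 on chromosome 1. Each sequence is the 250 bases before the transcription start in RefSeq (GRCh38.p14), 5′ to 3′ on the strand of the gene, and capitals mark the motifs found. The PTGS2 window is chr1:186680424-186680673 on the minus strand, the first of the PTGS1 windows is chr9:122370283-122370532 on the plus strand, and the PLA2G4A window is chr1:186828699-186828948 on the plus strand.
PTGS2: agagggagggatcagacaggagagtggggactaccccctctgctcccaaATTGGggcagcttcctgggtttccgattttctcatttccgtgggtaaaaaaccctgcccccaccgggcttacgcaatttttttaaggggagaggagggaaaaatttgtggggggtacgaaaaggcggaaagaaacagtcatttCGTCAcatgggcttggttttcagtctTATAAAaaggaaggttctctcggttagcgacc
PTGS1: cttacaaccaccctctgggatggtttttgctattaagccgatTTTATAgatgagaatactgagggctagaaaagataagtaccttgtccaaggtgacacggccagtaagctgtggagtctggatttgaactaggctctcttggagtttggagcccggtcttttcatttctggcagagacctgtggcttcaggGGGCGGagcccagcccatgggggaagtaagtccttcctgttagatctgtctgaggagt
PLA2G4A: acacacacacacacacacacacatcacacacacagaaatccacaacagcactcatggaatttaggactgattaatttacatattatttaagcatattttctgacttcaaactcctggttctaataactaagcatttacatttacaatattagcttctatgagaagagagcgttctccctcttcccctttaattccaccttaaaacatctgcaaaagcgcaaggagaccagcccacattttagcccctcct

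Both strands were searched for the TATA box (TATAAA), the core of the cyclic AMP response element (CGTCA), the E-box (CACGTG), the GC box (GGGCGG), the AP-1 motif (TGANTCA), the CCAAT box (CCAAT), and the NF-kappaB consensus. The PTGS2 window holds a TATA box whose first base is 32 bases before the start, a CGTCA core 58 bases before it, and a CCAAT box on the opposite strand, printed as ATTGG, 201 bases before it. The PTGS1 window shown holds a GC box 58 bases before the start and a TATA box on the opposite strand, printed as TTTATA, 208 bases before it. The other PTGS1 window, not shown, holds a GC box on the opposite strand 202 bases before its start, and no TATA box. None of the 7 motifs is in the PLA2G4A window, and no matches shown here overlap each other. Of all 35116 promoter windows of this length, 10.7% hold a TATA box, 21.2% the CGTCA core, 32.0% a CCAAT box, and 42.6% a GC box. The E-box is in 6.34%, the AP-1 motif in 6.57%, and the NF-kappaB consensus in 5.21%. A match or its absence describes only the letters in the window.

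PTGS2 mRNA was abundant at 6 h and low at 24 h. PTGS2 (ENSG00000073756), on chromosome 1 of hg19 from 186640923 to 186649559, had 11454 and 10869 raw counts in the 6 h libraries against 135 and 120 in the 24 h libraries. Both 24 h libraries lay far below both 6 h libraries. Normalized counts, which correct raw counts for the scaled size of each library, were 11396 ± 1370 (SD, n = 2) at 6 h and 126 ± 12.5 (SD, n = 2) at 24 h. The 24 h level of PTGS2 was 1.10% of the 6 h level, a 90.7-fold difference (log2 fold change -6.50, SE 0.113). Scaled to library total as CPM, PTGS2 stood between 405 and 479 at 6 h and between 4.37 and 5.10 at 24 h. It ranked 293 and 359 from the top of the 20372 genes by raw count at 6 h, and 10238 and 10407 at 24 h. Among the 10747 genes tested with a mean normalized count of at least 100, PTGS2 had the lowest log2 fold change, and it was at position 6 from the lowest of all 12876 genes tested. Leaving out each of the 4 libraries moved the value no further than -6.62 and -6.38.

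**Figure D1:**
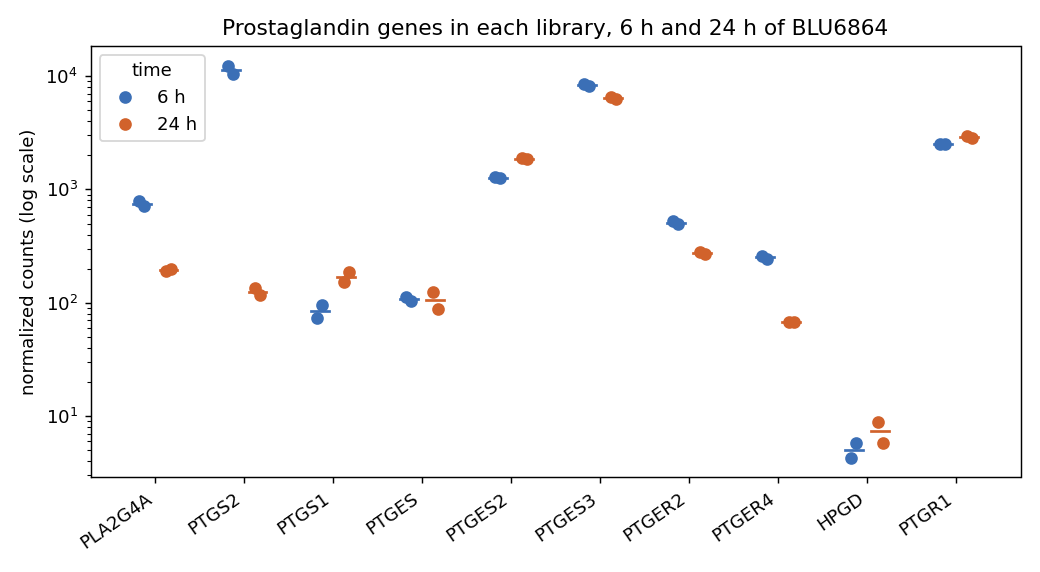
Normalized counts (log axis) of the 10 prostaglandin genes, with a point for each library, blue at 6 h and orange at 24 h, and a bar at the mean of the 2 libraries. The mean of PTGS2 is 11396 at 6 h and 126 at 24 h, whereas the points of PTGES at 24 h lie on both sides of those at 6 h.

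The other cyclooxygenase was higher at 24 h. PTGS1 (ENSG00000095303), on chromosome 9 of hg19 from 125132824 to 125157982, had 68 and 99 raw counts at 6 h and 154 and 192 at 24 h. The libraries of the time points were apart, with normalized counts of 170 ± 23.6 (SD, n = 2) at 24 h and 84.2 ± 15.3 at 6 h. The log2 fold change of PTGS1 was 1.01 (SE 0.165), and leaving out 1 library at a time gave 0.84 to 1.21. The gene AL162424.1 overlaps PTGS1 in the table, AL590708.2 overlaps PTGES2, and ZNF483 overlaps PTGR1, and reads in the shared parts could have been counted for either gene. PTGS1 is highly expressed in platelets, and 3 of the 4 platelet markers examined, GP9, PF4, and PPBP, had no counts in any library, while ITGA2B had between 4 and 10. The source of the PTGS1 reads was not tested.

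Levels of these 10 genes were compared with each other only per length, as RPKM, which is scaled CPM divided by the length in kilobases of the longest protein-coding transcript. On this scale the level of PTGS2 was 100 and 84.7 at 6 h, and that of PTGS1 was 0.559 and 0.723. At 24 h the level of PTGS2 was 1.09 and 0.948, and that of PTGS1 was 1.17 and 1.42. At 24 h the level of PTGS1 was thus slightly above that of PTGS2 in both libraries. The PTGS2 level was 180 and 117 times the PTGS1 level at 6 h, but only 0.935 and 0.666 times that level at 24 h. PTGS2 made up 99.4% and 99.2% of the summed cyclooxygenase level at 6 h and 48.3% and 40.0% at 24 h. The ratio depends on the length used for PTGS1, whose longest transcript has 5020 bases and whose 7 protein-coding transcripts average 2267, so with mean lengths it averaged 68.4 at 6 h and 0.369 at 24 h in place of 148 and 0.800.

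**Figure D2:**
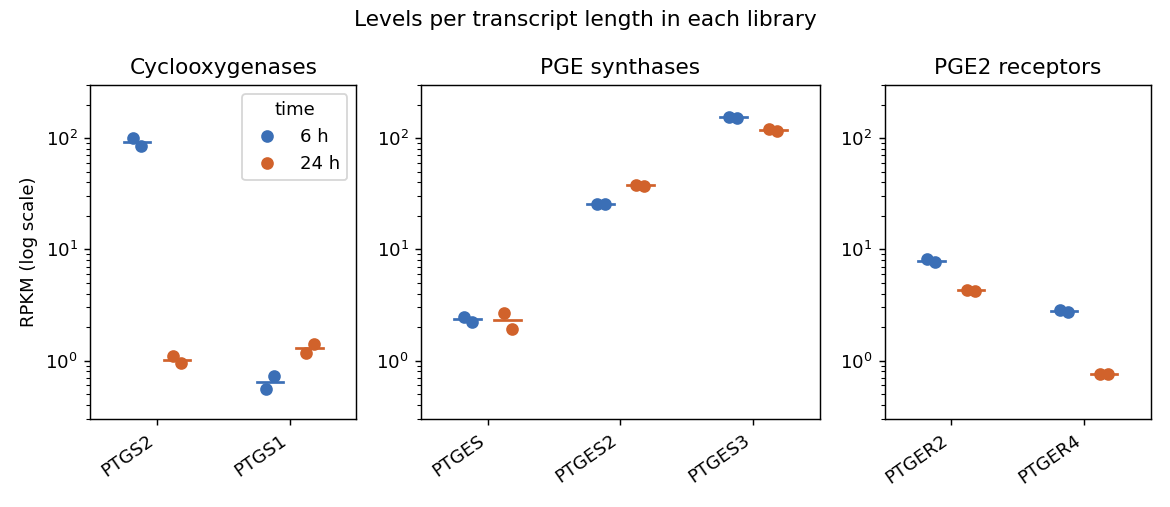
Levels per length in RPKM (log axis) of the cyclooxygenases, PGE synthases, and PGE2 receptors, with a point for each library, blue at 6 h and orange at 24 h, and a bar at the mean. PTGS2 is far above PTGS1 at 6 h and just below it at 24 h, while the order of the synthases and of the receptors is the same at both times.

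The phospholipase that supplies the substrate was also lower at 24 h. PLA2G4A (ENSG00000116711), on chromosome 1 of hg19 from 186798085 to 186958113, had 733 and 737 raw counts at 6 h and 191 and 206 at 24 h. The groups did not overlap, with normalized counts of 749 ± 59.5 (SD, n = 2) at 6 h and 195 ± 7.20 at 24 h. PLA2G4A was thus 3.83-fold lower at 24 h (log2 fold change -1.94, SE 0.103).

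The PGE synthases showed small differences in both directions. PTGES (ENSG00000148344), the inducible membrane-bound synthase that is often coupled to PTGS2, is on chromosome 9 of hg19 from 132500610 to 132515326. It had 105 and 107 raw counts at 6 h and 124 and 90 at 24 h, so the groups overlapped. Its log2 fold change of -0.03 (SE 0.175) had no settled sign and ranged from -0.29 to 0.20 when single libraries were left out. PTGES2 (ENSG00000148334), another membrane-associated synthase, on chromosome 9 from 130882972 to 130890741, had 1185 and 1319 raw counts at 6 h and 1900 and 1896 at 24 h. Its 24 h libraries were the higher ones, and the log2 fold change of PTGES2 was 0.55 (SE 0.0704). PTGES3 (ENSG00000110958), the cytosolic synthase that also serves as the HSP90 co-chaperone p23, on chromosome 12 from 57057127 to 57082159, had 7799 and 8567 raw counts at 6 h and 6548 and 6426 at 24 h. Here the 24 h libraries were the lower ones (log2 fold change -0.38, SE 0.0724). Per length, PTGES3 was the most abundant of the 3 synthases in each library, with a mean level of 153 ± 2.60 (SD, n = 2) at 6 h and 118 ± 3.52 at 24 h. PTGES2 followed with levels of 25.6 ± 0.196 and 37.6 ± 0.681, and PTGES was lowest, at 2.47 and 2.24 at 6 h and at 2.70 and 1.91 at 24 h. The ratio of the PTGES3 level to the PTGES2 level was 5.98 ± 0.0559 at 6 h and 3.13 ± 0.0369 at 24 h.

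Both PGE2 receptor genes were lower at 24 h, and PTGER4 by more than PTGER2. PTGER4 (ENSG00000171522), which encodes EP4, on chromosome 5 of hg19 from 40679600 to 40693837, had 239 and 254 raw counts at 6 h and 68 and 70 at 24 h. Its groups did not overlap, and PTGER4 was 3.69-fold lower at 24 h (log2 fold change -1.88, SE 0.148). PTGER2 (ENSG00000125384), which encodes EP2, on chromosome 14 from 52781023 to 52795324, had 485 and 512 raw counts at 6 h and 280 and 278 at 24 h. Its groups were also apart (log2 fold change -0.88, SE 0.100). Per length, the PTGER2 level was 7.89 ± 0.356 (SD, n = 2) at 6 h and 4.27 ± 0.0927 at 24 h, and the PTGER4 level was 2.80 ± 0.113 and 0.757 ± 0.00293. PTGER2 had 2.83 and 2.81 times the level of PTGER4 at 6 h, and 5.75 and 5.54 times its level at 24 h. With mean transcript lengths these ratios were 4.49 and 4.46 at 6 h and 9.11 and 8.79 at 24 h.

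Of the catabolic genes, only the reductase had sufficient counts. HPGD (ENSG00000164120), which encodes the 15-hydroxyprostaglandin dehydrogenase that starts the inactivation of PGE2, on chromosome 4 of hg19 from 175411328 to 175444305, had 4 and 6 raw counts at 6 h and 9 and 6 at 24 h. HPGD did not pass the filter on low counts, and a difference between the time points was not detectable at this depth. PTGR1 (ENSG00000106853), which encodes a reductase of 15-keto prostaglandins and leukotriene B4, on chromosome 9 from 114312002 to 114362135, had 2316 and 2627 raw counts at 6 h and 2953 and 2913 at 24 h. Its groups did not overlap, but the log2 fold change of PTGR1 was only 0.20 (SE 0.0697). Per length, the level of PTGR1 was 60.0 ± 0.341 (SD, n = 2) at 6 h and 69.1 ± 1.81 at 24 h, against 0.0660 ± 0.0133 and 0.0969 ± 0.0290 for HPGD.

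Of the 10 genes, 9 passed the filter. The 24 h libraries were below the 6 h libraries in 5 of these 9 (PTGS2, PLA2G4A, PTGER4, PTGER2, and PTGES3), as in 40.8% of all genes tested, and above them in 3 (PTGS1, PTGES2, and PTGR1), as in 41.0%. Their median log2 fold change was -0.38, beside 0.0029 over all genes tested. A log2 fold change under -1 was found for 3 of the 9, PTGS2, PLA2G4A, and PTGER4, and for 8.56% of all genes tested. Because the genes were chosen on this contrast, nothing is read from these counts. In order of level per length at 6 h, PTGES3 led, followed, by longest transcript, by PTGS2, PTGR1, PTGES2, PLA2G4A, PTGER2, PTGER4, PTGES, PTGS1, and HPGD. At 24 h the order was PTGES3, PTGR1, PTGES2, PTGER2, PLA2G4A, PTGES, PTGS1, PTGS2, PTGER4, and HPGD, in which the neighbours PLA2G4A (2.53 and 2.66) and PTGES (2.70 and 1.91) overlapped, and PTGS1 (1.30 ± 0.180) and PTGS2 (1.02 ± 0.102) differed by about their spread. With mean transcript lengths the order changed at 6 h, where PTGER2 (12.5) lay above PLA2G4A (9.95), and at 24 h, where PTGS1 (2.87) lay above PLA2G4A (2.59) and PTGES. Fewer cells that express a gene and less RNA per cell cannot be told apart in these bulk libraries.

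The remaining genes of the prostanoid pathway, taken from a list of 37, moved in both directions. This list and those below were chosen with earlier results of these data known, so their calls and p-values are no independent test. Genes were called when the absolute log2 fold change exceeded 0.5 with an unadjusted P under 0.01 in edgeR's quasi-likelihood test, the cutoffs of the methods applied both ways. Of the 25 genes tested, 8 were called higher and 7 lower at 24 h, beside 17.4% and 17.7% of all genes tested, and their median log2 fold change was 0.28. By an edgeR adjusted P under 0.05 with no fold cutoff, 13 were higher and 9 lower, beside 33.0% and 32.6% of all genes. The main exporter of prostaglandins from the cell, ABCC4, rose from 2683 and 2787 raw counts at 6 h to 13282 and 14066 at 24 h (log2 fold change 2.27, SE 0.0782, edgeR adjusted p = 2.75e-19). The importer SLCO2A1 had at most 2 counts in any library. ACSL4, which couples arachidonic acid to coenzyme A for storage in phospholipids, rose from 9104 and 8963 to 25079 and 24596 raw counts (log2 fold change 1.41, edgeR adjusted p = 3.67e-14). FAAH, a hydrolase that frees arachidonic acid from anandamide, rose from 10 and 27 to 52 and 76 counts (log2 fold change 1.74, edgeR adjusted p = 1.82e-05). MGLL, which frees it from monoacylglycerol and had the highest mean normalized count of the genes not called, was higher in both 24 h libraries (log2 fold change 0.48, edgeR adjusted p = 2.84e-06).

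Among the synthases of other prostanoids, 3 of the 7 tested were called higher and 1 lower, beside 17.4% and 17.7% of all genes. PTGDS, the prostaglandin D2 synthase, rose from 46 and 43 to 106 and 112 raw counts (log2 fold change 1.24, edgeR adjusted p = 3.49e-06). PTGIS, the prostacyclin synthase, rose (log2 fold change 0.85, edgeR adjusted p = 1.96e-10), and AKR1B1, an aldose reductase that also makes prostaglandin F2α, rose too (log2 fold change 0.61, edgeR adjusted p = 2.02e-06). AKR1B1 had the highest counts of the list, not corrected for length, with 100295 and 112443 raw counts at 6 h and 166022 and 168808 at 24 h. AKR1C3, another prostaglandin F synthase, fell from 6826 and 8580 to 3355 and 3493 counts (log2 fold change -1.21, edgeR adjusted p = 1.11e-13). Of the reductases, CBR3 fell from 1719 and 1938 to 504 and 485 counts (log2 fold change -1.93, edgeR adjusted p = 1.20e-17). AKR1C1 fell from 210 and 237 to 11 and 11 counts (log2 fold change -4.37, edgeR adjusted p = 1.38e-15). AKR1C2, also called lower, had 10 and 15 counts at 6 h and 1 and 2 at 24 h, and was 8.60-fold lower by summed counts, with a 95% exact binomial interval from 2.62 to 44.5 that covers counting error only. AKR1C1, AKR1C2, and AKR1C3 are closely similar in sequence, so reads may have been split between them. PTGR2, a 15-keto prostaglandin reductase, rose (log2 fold change 0.88, edgeR adjusted p = 3.42e-06).

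The list holds 7 other prostanoid receptor genes, of which PTGER1 and PTGER3 encode EP receptors and 5 the receptors of other prostanoids. Only 3 of the 7 had enough counts to be tested, of which 1 was called higher and 1 lower, beside 17.4% and 17.7% of all genes. PTGFR, the receptor of prostaglandin F2α, rose from 6 and 4 to 35 and 31 counts (log2 fold change 2.65, SE 0.422, edgeR adjusted p = 4.52e-06). PTGDR, a receptor of prostaglandin D2, fell from 18 and 43 to 6 and 8 counts (log2 fold change -2.14, SE 0.439, edgeR adjusted p = 0.000124). The other EP receptor genes, PTGER1 and PTGER3, had at most 3 counts in any library. Annexin A1 (ANXA1), which inhibits phospholipase A2, fell from 27247 and 30727 to 12922 and 12308 counts (log2 fold change -1.24, edgeR adjusted p = 2.57e-13). PLA2G12A, a secreted phospholipase and the only one of the 4 other phospholipases tested that was called, fell by an amount at the edge of the cutoff (log2 fold change -0.50, edgeR adjusted p = 1.09e-05).

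**Figure D3:**
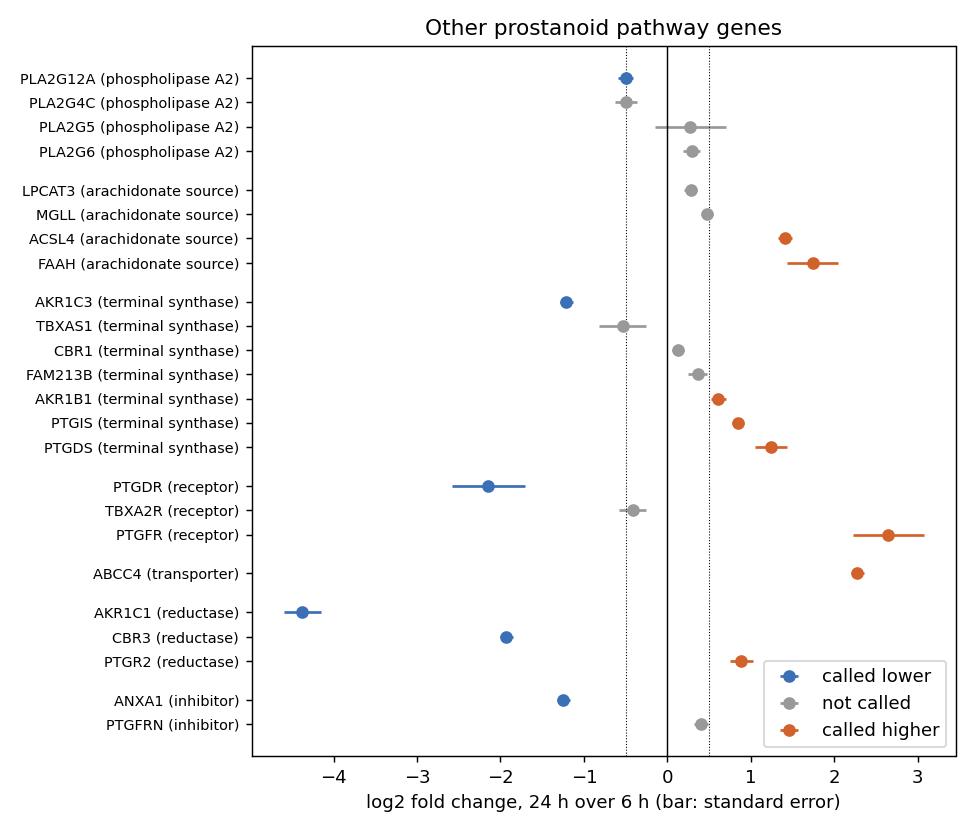
Log2 fold change (24 h over 6 h) of the tested genes of the prostanoid pathway list by role, with points for the fitted value, bars for its standard error, and dotted lines at the cutoffs of -0.5 and 0.5. AKR1C2 is left out for its low counts, and genes called higher, such as ABCC4 at 2.27, and lower, such as AKR1C1 at -4.37, lie on both sides of 0.

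The lipoxygenase branch, which turns the same arachidonic acid into leukotrienes and related lipids, had few expressed genes. Of the 15 genes listed, 6 had no counts in any library, including the lipoxygenase ALOX5 and the leukotriene C4 synthase LTC4S, and 6 passed the filter. Of these 6, 3 were called higher and 1 lower, beside the 17.4% and 17.7% of all genes, and their median log2 fold change was 0.64. DPEP1, a dipeptidase that converts leukotriene D4 to E4, had 1 and 1 counts at 6 h and 120 and 123 at 24 h, which is 118-fold higher by summed counts with a 95% exact binomial interval from 32.2 to 978 that covers counting error only and not the spread between libraries. GGT5, which makes leukotriene D4 from C4, rose from 7 and 9 to 48 and 45 counts (log2 fold change 2.48, edgeR adjusted p = 5.72e-07). ALOX12, a 12-lipoxygenase, rose from 59 and 50 to 91 and 106 counts (log2 fold change 0.80, edgeR adjusted p = 0.000826). LTB4R, a receptor of leukotriene B4 whose position overlaps that of LTB4R2, fell from 158 and 179 to 76 and 96 counts (log2 fold change -1.01, edgeR adjusted p = 2.76e-06). LTA4H, which makes leukotriene B4 and had the highest counts of this list, was not called (log2 fold change 0.47, edgeR adjusted p = 2.33e-06). The number of genes called lower rose without library 2 of the 24 h group. With a minimum of 10 counts per library, 1 gene was called higher, since DPEP1 and GGT5 were not tested. The shares of all genes called in these fits are not given here.

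EP2 and EP4 signal through Gs, adenylyl cyclases, protein kinase A, and exchange factors activated by cyclic AMP. Of the 27 genes tested in this list of 29, 6 were called higher and 7 lower, beside 17.4% and 17.7% of all genes, and their median log2 fold change was -0.05. RAPGEF3, the exchange factor EPAC1, rose from 169 and 223 to 2759 and 2703 raw counts (log2 fold change 3.76, SE 0.0904, edgeR adjusted p = 1.21e-22). AKAP12, a scaffold that anchors protein kinase A, fell from 6207 and 7327 to 556 and 576 counts (log2 fold change -3.62, SE 0.0812, edgeR adjusted p = 3.07e-23). The adenylyl cyclases differed in direction, and ADCY9 and ADCY3 rose with log2 fold changes of 1.07 and 1.03 (edgeR adjusted p = 8.64e-12 and 1.05e-11). ADCY7 was called lower (log2 fold change -0.55, edgeR adjusted p = 3.22e-06), and ADCY6 was lower but not called (log2 fold change -0.25, edgeR adjusted p = 0.00566). PDE4A, a phosphodiesterase that degrades cyclic AMP, fell from 105 and 133 to 48 and 40 counts (log2 fold change -1.48, edgeR adjusted p = 2.20e-07). NR4A2 and NR4A3, nuclear receptors of the immediate early class, fell, NR4A2 from 82 and 119 to 41 and 47 counts (edgeR adjusted p = 8.64e-06) and NR4A3 from 33 and 54 to 8 and 3 (edgeR adjusted p = 4.70e-07), whereas NR4A1 was not called (log2 fold change 0.32, edgeR adjusted p = 0.0400). SIK1, a kinase that restrains the coactivators of CREB, rose from 27 and 23 to 84 and 97 counts (log2 fold change 1.80, edgeR adjusted p = 1.78e-07). GRK5, a kinase that desensitizes receptors coupled to G proteins, fell (log2 fold change -1.39, edgeR adjusted p = 7.07e-07). GNAS, which encodes the Gs subunit itself, had the highest counts of the genes not called (log2 fold change 0.39, edgeR adjusted p = 0.000167).

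Few of the factors known to act on the PTGS2 gene or its mRNA were called, and 20 of the 25 tested were not. Of the 25 genes tested in this list of 27, 2 were called higher and 3 lower, beside 17.4% and 17.7% of all genes, and their median log2 fold change was -0.09. FOS, a component of AP-1, fell from 251 and 236 to 90 and 60 raw counts (log2 fold change -1.75, SE 0.167, edgeR adjusted p = 7.24e-10). Its partner JUN rose from 1633 and 1918 to 2824 and 2887 counts (log2 fold change 0.64, edgeR adjusted p = 8.59e-09). USF1, which binds E-boxes, fell by an amount at the edge of the cutoff (log2 fold change -0.50, edgeR adjusted p = 1.40e-06). CEBPD, a factor that binds the PTGS2 promoter, had the highest counts of the genes not called (log2 fold change -0.37, edgeR adjusted p = 0.000138). Of the proteins that bind AU-rich mRNAs, ZFP36L1, which promotes their decay, rose from 5827 and 6579 to 10186 and 11187 counts (log2 fold change 0.74, edgeR adjusted p = 1.83e-09). ZFP36L2 and ZFP36, of the same family, were lower in both 24 h libraries but not called (log2 fold change -0.47 and -0.20, edgeR adjusted p = 6.71e-06 and 0.0561). TIA1, a translational silencer, fell (log2 fold change -0.59, edgeR adjusted p = 3.46e-08). ELAVL1, which stabilizes such mRNAs, was not called (log2 fold change -0.12, edgeR adjusted p = 0.127). The number of genes called lower rose without library 2 of the 6 h group, a fit whose share over all genes is not given here.

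PTGS2 and PLA2G4A are next to each other in the table, 149 kb apart, with 0 other genes of the table between them. Of the 3 tested genes on either side, 4 of 6 were called lower and 0 higher with edgeR, against 17.7% and 17.4% of all genes. They are neighbours by order and not by distance. The 3 before PTGS2 lie 250 to 481 kb from it, whereas the 3 beyond PLA2G4A lie 6129 to 6379 kb from PTGS2. RGS2, a regulator that dampens G protein signalling and lies 6129 kb from PTGS2, fell from 1088 and 1322 to 478 and 447 raw counts (log2 fold change -1.42, edgeR adjusted p = 5.99e-14). HMCN1 fell (log2 fold change -1.13, edgeR adjusted p = 0.000128), as did C1orf27 (log2 fold change -0.69, edgeR adjusted p = 9.05e-09) and UCHL5, whose position overlaps that of TROVE2 (log2 fold change -0.53, edgeR adjusted p = 4.31e-07). TPR, which encodes a nuclear pore protein 296 kb from PTGS2, was not called (log2 fold change -0.21, edgeR adjusted p = 0.0122), nor was TROVE2 (log2 fold change 0.01, edgeR adjusted p = 0.919). None of these 6 neighbours came near the value of PTGS2, which was among the lowest of all genes tested. Nothing is read from that gap.

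**Figure D4:**
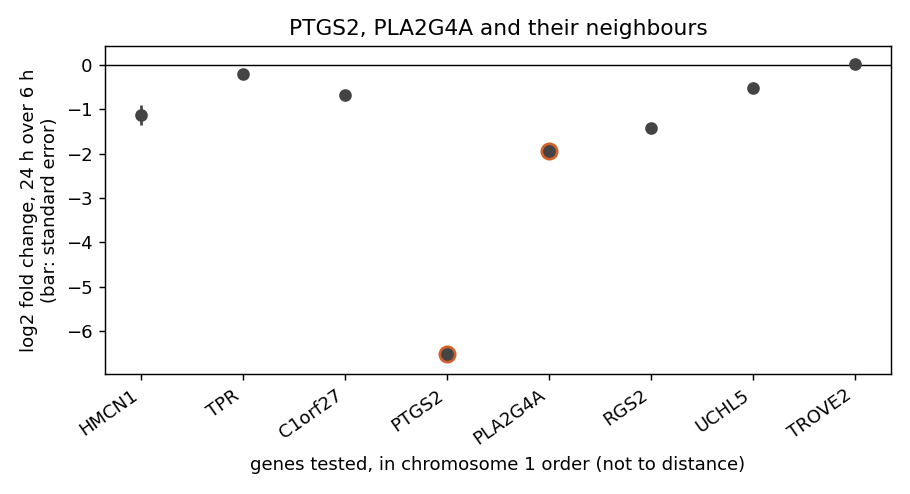
Log2 fold change (24 h over 6 h) of PTGS2 and PLA2G4A (in orange) and of the 3 tested genes on either side, in chromosome 1 order and not to distance, with bars for the standard error. PTGS2 at -6.50 lies far below PLA2G4A at -1.94 and below the tested genes on either side, of which RGS2 at -1.42 is the lowest.

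The pattern of PTGS2 over the 4 libraries was compared with that of 10746 other genes with a mean normalized count of at least 100, by the Euclidean distance between centred log2 CPM. The nearest genes were CDC25C (distance 0.856), SCEL (0.905), DLGAP5 (1.16), IL33 (1.16), and NEK2 (1.27). CDC25C, DLGAP5, and NEK2 act in mitosis, SCEL is a precursor of the cornified envelope, and IL33 is a cytokine of the IL1 family. CDC25C had 892 and 938 raw counts at 6 h and 17 and 17 at 24 h, and IL33 had 751 and 785 against 23 and 11. With 2 libraries per time point, the distance is set mostly by the size of the difference, and nothing is read from it about shared control.

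Total counts per library ranged from 23917056 to 27457040. The Spearman correlation of raw counts over all genes was 0.990 and 0.989 within the time points and at most 0.972 between them. The thyroid transcription factors PAX8 and FOXE1 were expressed, whereas NKX2-1 and TSHR had no counts in any library. Epithelial KRT8 and KRT18 were present, but CDH1 had at most 8 counts and EPCAM at most 11. Of 8 markers of white blood cells, 5 had at most 3 counts in any library, PTPRC had at most 5, and the summed normalized counts ranged from 64.3 to 68.0 at 6 h and from 98.6 to 101 at 24 h, mostly CD14. Those of the 5 fibroblast markers ranged from 272 to 286 at 6 h and from 145 to 160 at 24 h, with COL3A1 at 0 and DCN at no more than 1 count. Their members differed in direction, since COL1A1 fell from 218 and 237 to 63 and 95 raw counts whereas LUM rose from 39 and 40 to 71 and 66. The part of such cells in the results above was not tested.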

How the data were processed

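Bulk RNA-seq covered 4 libraries of BLU6864-treated TPC1 cells, 2 at 6 h and 2 at 24 h. The authors aligned reads to hg19 with STAR (version 2.3 in the submitters' processing notes, a later one in the methods) and deposited raw counts per gene. The counting program and its strand setting are not given in the sources used here, so overlapping and antisense genes are uncertain. The authors also deposited a size-factor normalized signal with its mean, and their DESeq2 comparison as a log2 fold change with standard error, a Wald score, and p-values. None of these was used. The number of other columns with values per sample was 0.

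The deposited counts went into edgeR 4.0.16 under R 4.3.3 (filterByExpr, TMM, quasi-likelihood test with Benjamini-Hochberg adjustment over 12876 genes, which hold 99.97% of counts). Standard errors (SE) were derived from the fold change and its F statistic. DESeq2 1.42.0 was an alternative. The procedure was tested on simulated data of 12761 genes with 200 changed and the same spread set for every gene. There edgeR recovered 94.5% of the changed genes with 17 false calls, and DESeq2 91% with 1. Spread that differs between genes was not simulated. Transcript lengths are from GENCODE v44, matched by Ensembl identifier, and promoters from RefSeq GRCh38.p14, where 10 of the 10 genes matched by symbol (14 windows). Positions of genes follow the table (hg19) and were not mixed with GRCh38. The planned comparison of protein sequences was not made.

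The prostaglandin genes and the lists were chosen with earlier results of these data known. Named genes were the prostaglandin genes, per list the called genes with a mean normalized count of at least 20 (the 8 largest changes where there were more) and the uncalled gene with the highest mean normalized count, the chromosomal neighbours, and the 5 nearest in pattern. PTGIS, AKR1B1, PTGR2, PLA2G12A, PTGFR, PTGDR, AKR1C2, and genes at or near 0 were named after their values were seen. So were ADCY3, ADCY6, ADCY7, NR4A1, ELAVL1, ZFP36, and ZFP36L2. No source says whether the libraries come from separate cultures, so p-values measure only the spread between these libraries, whose counts differed by more than sampling noise (the chi-square statistic divided by its degrees of freedom was 6.67 for the 24 h pair and 8.66 for the 6 h pair).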

Additional observations from a re-analysis of the deposited data

How the results depend on the processing

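Alternatives were DESeq2 (its size factors and test), scaling by library size or by the upper quartile, omitting the filter, a minimum of 10 counts per library, a replicate block, a rule on the adjusted P (under 0.05) without a fold cutoff, and leaving out single libraries. In the last, the lone library of a group is assumed to vary like the other group. PTGS2 kept its direction throughout, between -6.54 and -6.47 under the other scalings, filters, and fits. Of the prostaglandin genes tested, only PTGES changed sign, over a range from -0.29 to 0.20, to 0.20 without library 2 of the 24 h group and to 0.04 without library 1 of the 6 h group. The ratio of the PTGS2 level to the PTGS1 level moved to 0.369 at 24 h and 68.4 at 6 h with mean transcript lengths, and that of PTGER2 to PTGER4 to 8.95 and 4.48, by construction.

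With the adjusted P alone, which 33.0% of all genes passed as higher and 32.6% as lower, 13 prostanoid pathway genes were higher, 2 lipoxygenase genes were lower, 11 EP receptor signalling genes were lower, and 7 PTGS2 regulators were higher and 9 lower, since no fold change was required. With the minimum of 10 counts, 4 prostanoid pathway genes were lower and 1 lipoxygenase gene was higher, because fewer genes were tested. Across the fits that left out a library, higher and lower calls ranged from 8 to 10 and 6 to 7 in the prostanoid pathway, 2 to 4 and 1 to 2 in the lipoxygenase branch, 5 to 6 and 6 to 8 in EP receptor signalling, and 2 to 3 and 3 to 5 among PTGS2 regulators.

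Replicate numbers occur at both time points, but no source says what they mark, and the correlation of deviations between same-numbered libraries was 0.0691. With the replicate block, 2 lipoxygenase genes were lower in place of 1, and no other count of calls in these lists moved by over 1.5 times. Over all genes, 2283 were called higher and 2313 lower with the block, beside 2238 and 2278 without it. For the fits with a minimum of 10 counts or a library left out, the numbers over all genes are not given here. The list counts of those fits therefore have no background beside them. With 2 libraries per time point, HPGD and other genes that did not pass the filter on low counts could not be compared. PTGFR, PTGDR, GGT5, DPEP1, AKR1C2, and NR4A3 passed it with under 10 counts per library at 6 h or at 24 h. Their fold changes therefore rest on few counts. Vehicle libraries were not analysed here.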
